A study of Mus musculus with 20 samples.

Results

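The regions described here are stretches of the mouse genome where the histone mark H3K27me3 was called in adult but not in fetal haematopoietic stem cells (HSCs). They were chosen by the positions of the called H3K27me3 peaks of both stages, as the adult H3K27me3 peaks on chromosomes 1 to 19 that shared no base with any fetal H3K27me3 peak. There were 1731 such adult-only peaks among 22831 adult H3K27me3 peaks, and the other 21100 shared at least 1 bp with a fetal peak and are called shared peaks. The choice used both H3K27me3 lists, so the share of 7.58% (exact Clopper-Pearson 95% interval 7.24 to 7.93%) and every H3K27me3 width, score and distance below describe the selection and test nothing.

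The study sorted lineage-negative Sca1+ cKit+ CD135- cells from B6129SF1 mice. Fetal cells came from liver at embryonic day 14.5 and adult cells from bone marrow at 6 to 8 weeks of age, with no treatment or genetic change named for either stage. Chromatin immunoprecipitation and sequencing (ChIP-seq) was carried out on 50000 cells per reaction for H3K27me3, H3K4me3, H3K27ac and H3K4me1, with 2 libraries per mark and stage. The authors deposited 1 combined peak list per mark and stage, so no value here has a replicate and no difference between stages or sets of peaks could be tested against replicate spread. The gate is a sorted population rather than a single cell type, and peak lists hold no expression values against which to check it.

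H3K27me3 is laid down by Polycomb repressive complex 2 and marks chromatin of genes that are held silent, often over broad domains around regulators of development. H3K4me3 marks promoters, H3K27ac marks active promoters and enhancers, and H3K4me1 marks enhancers in active or primed states. Acetylation and trimethylation occupy the same lysine, so they exclude each other on a single histone tail, whereas H3K4me3 and H3K27me3 can lie together at promoters called bivalent. Because fetal absence of H3K27me3 was part of the choice, fetal H3K27ac at these peaks is less independent of that choice than the other marks are.

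The lists differed widely in size and peak width. The fetal H3K27me3 list held 14579 peaks with a median width of 1408 bp and covered 37.79 Mb, and the adult list held more but narrower peaks, with a median width of 280 bp and 9.31 Mb covered. For H3K4me3 there were 16567 fetal and 16156 adult peaks, for H3K27ac 23368 and 17834, and for H3K4me1 92339 and 12502. The number of reads behind each list is not known from the lists, so the absence of a peak means that none was called, not that the mark was absent. A single interval of chromosome 15 of 149036 bp, with no fetal H3K27me3 peak, held 188 of the 1731 adult-only peaks (10.9%) and 24.5% of their bases. It stood apart from the rest, so the main results are given with and without it.

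The adult-only peaks were mostly narrow and weak. Their width ran from 77 to 3095 bp, with a median of 181 bp and quartiles of 162 and 220 bp, and the shared peaks had a median width of 293 bp. The authors' peak score, which has no stated unit and starts at 50, had a median of 57.12 at the adult-only peaks and 96.2 at the shared peaks. Adult-only peaks made up 18.6% of the adult peaks in the lowest quartile of score and 7.20%, 2.65% and 1.88% of those in the next quartiles. By number 261 of them (15.1%) reached the median score of the whole adult list, 91.22, and 23 were at least 1 kb wide, of which 21 lay in the chromosome 15 interval. Together the 1731 peaks covered 0.405 Mb, which was 4.35% of the bases in the adult list.

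**Figure D1:**
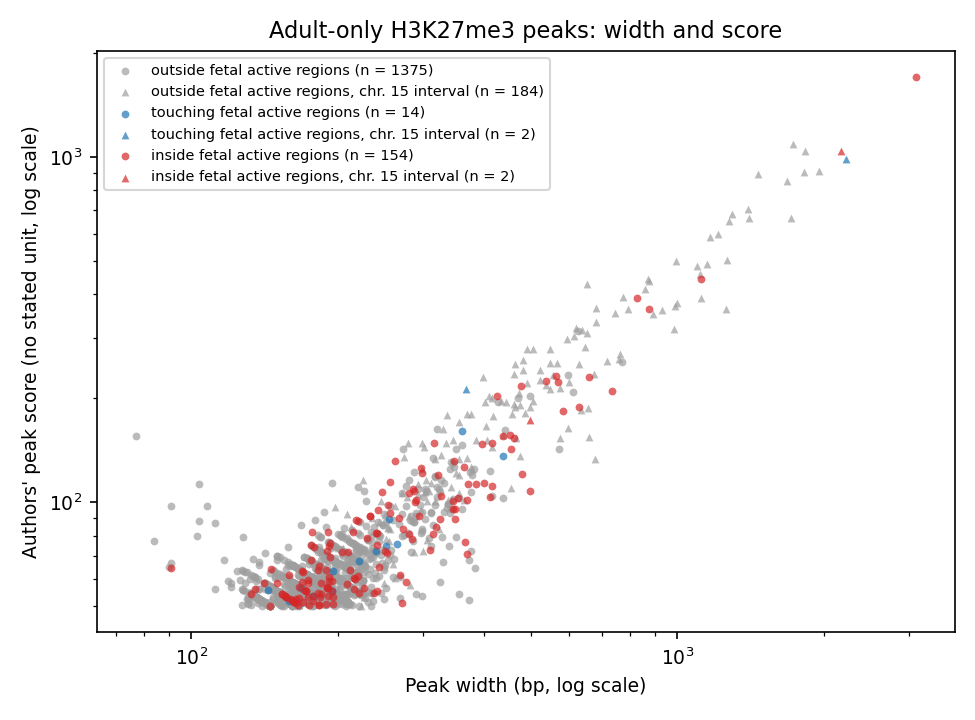
Width in bp (horizontal, log scale) against the authors' peak score (vertical, log scale, no stated unit) for the 1731 adult-only H3K27me3 peaks, with the peaks inside fetal active regions and those of the chromosome 15 interval marked. Most points crowd at widths near the median of 181 bp and scores near the minimum of 50, and the widest and highest point is the 3095 bp peak of chromosome 6.

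The rule has a sharp edge, and few peaks sat on it. One adult-only peak, on chromosome 4 from 130128079 to 130128322 (score 76.93), lay directly beside a fetal H3K27me3 peak with no base between them, 11 lay under 10 bp away and 91 under 100 bp away. The next nearest were peaks 1 bp from a fetal peak on chromosome 8 from 14111607 to 14111802 (score 75.23) and on chromosome 11 from 118558045 to 118558225 (score 54.63), and then a peak 3 bp away on chromosome 8 from 123768216 to 123768526 (score 93.38) and 1 at 4 bp on chromosome 12 from 106518682 to 106518898 (score 67.18). On the other side, the peaks on chromosome 15 from 35239247 to 35239476 (score 77.98) and on chromosome 2 from 29604256 to 29604448 (score 62.41) were left out for an overlap of 1 bp. Of the shared peaks 13 overlapped by under 10 bp, and 328 (1.55%) were only partly covered by fetal peaks.

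Distance to the nearest fetal H3K27me3 peak spread over several orders of magnitude, with a median of 6449 bp and quartiles of 855 and 44010.5 bp. By distance 474 adult-only peaks (27.4%) lay under 1 kb from a fetal peak, 339 (19.6%) at 1 to 5 kb, 523 (30.2%) at 5 to 50 kb and 395 (22.8%) at 50 kb or more. Fetal peaks within 5 kb on both sides enclosed 207 of them. The set therefore holds both peaks at the border of fetal H3K27me3 domains and peaks far from any. Without the chromosome 15 interval the median distance was 4340 bp.

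Adult-only peaks also stood more alone within the adult list. The median gap to the next adult H3K27me3 peak was 3265 bp, and 608 (35.1%) had no other adult peak within 10 kb, against 4.08% of shared peaks. Conversely 556 (32.1%) had another adult peak under 1 kb away, against 88.8% of shared peaks. The 5 peaks farthest from fetal H3K27me3 were small and weak: a 209 bp peak on chromosome 16 from 3243707 to 3243915 (score 67.6) lay 1174968 bp away, and a 104 bp peak on chromosome 14 from 4138490 to 4138593 (score 88.3) lay 929361 bp away. The other 3 were on chromosome 16 from 75447178 to 75447349 and from 87310527 to 87310683, and on chromosome 13 from 61311847 to 61311990, with scores of 50.44 to 53.21. None of the 5 carried any of the other marks at either stage.

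**Figure D2:**
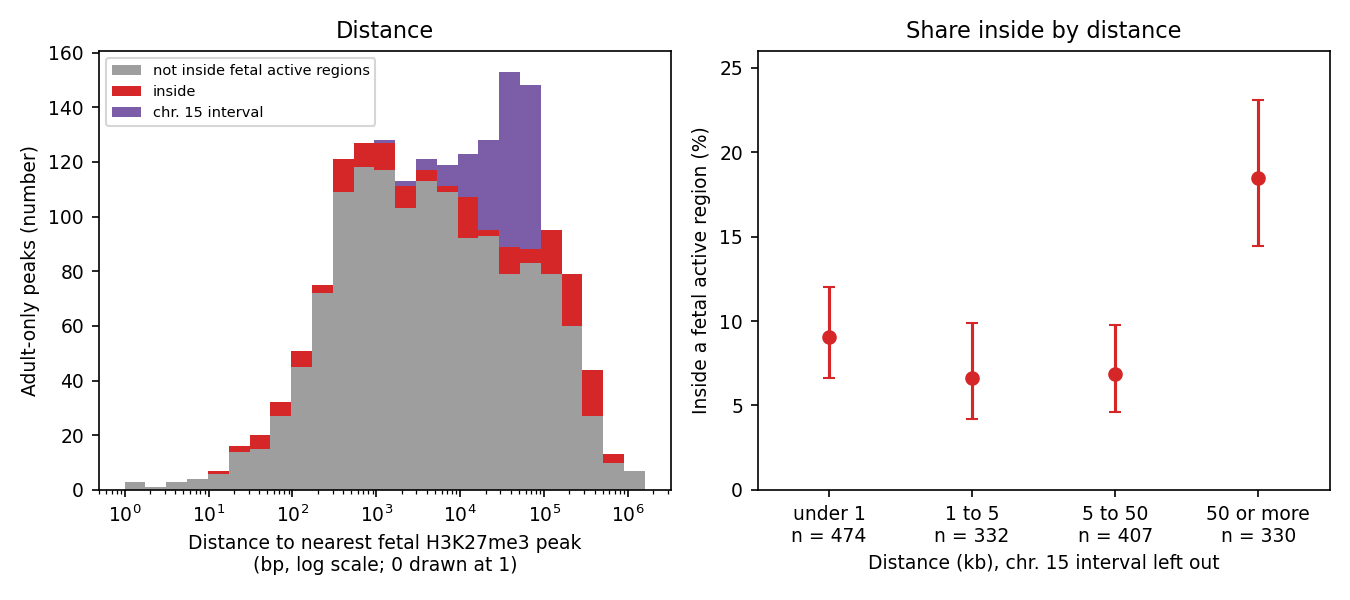
Left, number of adult-only H3K27me3 peaks by distance to the nearest fetal H3K27me3 peak (bp, log scale, a distance of 0 drawn at 1). Right, share of adult-only peaks inside fetal active regions by distance class in kb, with exact 95% intervals and the chromosome 15 interval left out. The share is 9.07% under 1 kb, 6.63% and 6.88% in the middle classes, and 18.5% at 50 kb or more. Over all adult H3K27me3 peaks it is 16.0%.

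Most adult-only peaks, 1507 of 1731 (87.1%), overlapped no H3K4me3, H3K27ac or H3K4me1 peak of either stage, against 64.5% of shared peaks. H3K4me3, the promoter mark, was less frequent at them than over the whole list. A fetal H3K4me3 peak overlapped 163 of them (9.42%, interval 8.08 to 10.9%; all adult H3K27me3 peaks 20.4%) and an adult H3K4me3 peak 122 (7.05%, 5.89 to 8.36%; all adult peaks 18.6%). Fetal H3K4me1 overlapped 139 (8.03%, 6.79 to 9.41%; all adult peaks 27.4%) and adult H3K4me1 3 (0.173%; all adult peaks 1.89%). These exact intervals cover counting error over peaks only. The order of fetal H3K4me3 turned around when only H3K4me3 peaks at or above their list's median score were used, at 4.62% of adult-only and 2.04% of shared peaks. Among adult H3K27me3 peaks at or above their median score, fetal H3K4me3 was at 21.1% of adult-only and 26.9% of shared peaks. Without the chromosome 15 interval that order turned around too, at 41.5% of these adult-only peaks.

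H3K27ac showed the opposite order at the fetal stage. Fetal H3K27ac overlapped 95 adult-only peaks (5.49%, 4.46 to 6.67%), against 3.80% of all adult H3K27me3 peaks and 3.66% of the shared peaks. Adult H3K27ac overlapped 55 (3.18%, 2.40 to 4.12%), against 4.77% of all adult peaks and 4.91% of the shared peaks. Adult-only peaks thus carried fetal acetylation more often, and adult acetylation less often, than the shared peaks in these lists. The sets were split by fetal H3K27me3, so the order of fetal acetylation is not independent of that split. Both orders depended on which adult peaks were compared: with adult H3K27me3 peaks merged within 1 kb, fetal H3K27ac was at 3.90% of adult-only and 7.48% of shared peaks, and among adult peaks at or above the median score, adult H3K27ac was at 7.66% of adult-only and 6.06% of shared peaks. Without the chromosome 15 interval, 6.16% of the remaining 1543 had fetal H3K27ac and 3.56% had adult H3K27ac.

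**Figure D3:**
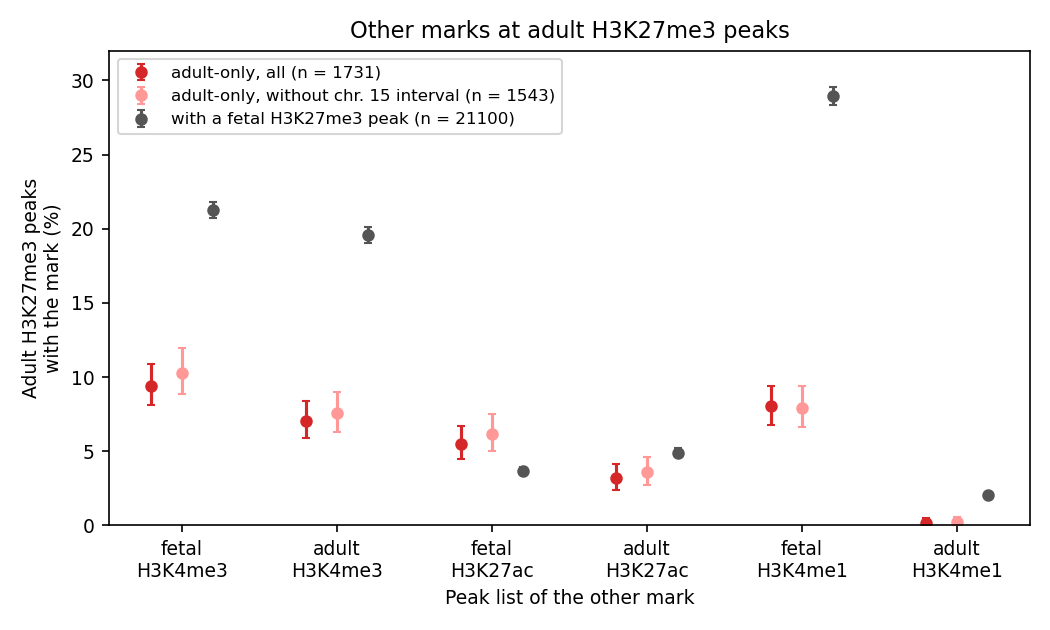
Share of adult H3K27me3 peaks (%) that overlap a peak of each other mark by at least 1 bp, by list of the other mark, for adult-only and shared peaks, with exact 95% intervals that cover counting error over peaks only. Adult-only peaks are lower for H3K4me3 and H3K4me1 at both stages and for adult H3K27ac. They are higher for fetal H3K27ac, at 5.49% against 3.66%, an order that merging adult peaks within 1 kb turned around. The orders of adult H3K27ac and fetal H3K4me3 also turned around with the limits on score given in the text.

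Fetal active regions were defined as merged fetal H3K4me3 and H3K27ac peaks. An adult-only peak counted as inside when at least 50% of its width was covered, as touching when covered from 1 bp to under 50%, and as outside otherwise. Inside were 156 peaks (9.01%, interval 7.70 to 10.5%; all adult peaks 16.0%, shared peaks 16.5%). Touching were 16 (0.924%; all adult peaks 4.83%), and outside were 1559. Without the chromosome 15 interval 9.98% were inside. The peaks inside were wider and higher than those outside, with a median width of 224 against 178 bp and a median score of 72.06 against 56.69. They were also farther from fetal H3K27me3, at a median of 13894 against 6268 bp. The 16 touching peaks had a median width of 230.5 bp and a median score of 69.73. Of the peaks inside, 52 (33.3%) reached the median score of the adult list, against 205 (13.15%) of those outside.

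By width, the order of the share inside in the widest quartile turned on the chromosome 15 interval, whose removal was chosen after its values were seen. The order of fetal H3K27ac in that quartile did not. With the interval, 17 of 103 adult-only peaks in the widest quartile of the adult list (16.5%) were inside a fetal active region. This was below the 20.4% of shared peaks. Fetal H3K27ac overlapped 13.6% of the 103, above the 4.73% of shared peaks. In the quartile of 280 to 457 bp 22.6% were inside, against 17.6% of shared peaks, an order that also held without the interval. Without the interval, 22 adult-only peaks fell in the widest quartile of the adult list (457 to 5651 bp), and 15 of them (68.2%) were inside a fetal active region, against 20.4% of shared peaks of that width (all adult peaks of that quartile 20.3%). Fetal H3K27ac overlapped 14 of the 22 (63.6%), against 4.73% of the shared peaks (all adult peaks of that quartile 4.89%). In the next quartile (280 to 457 bp) 37 of 112 (33.0%) were inside, against 17.6% of shared peaks. In the narrowest quartile the order was turned around, at 5.88% against 12.2%.

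By score too, the interval decided the comparison of the share inside, but not the order of fetal H3K27ac. With the interval, 52 of the 261 adult-only peaks at or above the median score (19.9%) were inside, close to the 19.6% of shared peaks. Fetal H3K27ac overlapped 13.4% of the 261, against 4.28% of the shared peaks of that score. Outside the interval 123 adult-only peaks reached the median score of the adult list. Of these 50 (40.7%, interval 31.9 to 49.9%) were inside, in 35 distinct fetal active regions, against 19.6% of shared peaks of that score and 19.6% of all adult peaks of that score. Fetal H3K27ac overlapped 35 of the 123 (28.5%, 20.7 to 37.3%), in 22 distinct fetal H3K27ac peaks, against 4.28% of the shared peaks and 4.48% of all adult peaks. Adult H3K27ac was at 16.3% of the 123 and 6.06% of the shared peaks of that score. Several of these peaks share 1 active region, so the intervals are too narrow as a statement about regions. Without the 19-member run on chromosome 6 described below, 114 remained, with 39.5% inside and 26.3% with fetal H3K27ac. Among the 1420 weaker adult-only peaks, 7.32% were inside, against 13.1% of the weaker shared peaks and 12.4% of all weaker adult peaks. Fetal H3K27ac overlapped 4.23% of these weaker adult-only peaks, against 3.11% of all weaker adult peaks.

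Among the adult-only peaks the share inside also differed by distance. With the interval kept, 15.7% of the 395 peaks at least 50 kb from fetal H3K27me3 were inside, and 5.54% of the 523 at 5 to 50 kb. Outside the interval the 330 peaks at least 50 kb from fetal H3K27me3 were inside in 18.5% of cases (interval 14.4 to 23.1%). Fetal H3K4me3 was at 20.0% and fetal H3K27ac at 13.0% of them. Over all adult H3K27me3 peaks these 3 shares were 16.0%, 20.4% and 3.80%, so only fetal H3K27ac stood well above its value there. Several of the far peaks share 1 active region, so the interval is too narrow as a statement about regions. The share inside was 9.07% for the 474 peaks under 1 kb away, 6.63% for the 332 at 1 to 5 kb and 6.88% for the 407 at 5 to 50 kb. Of the peaks outside active regions and outside the interval, 71 were at or above the median score. Their median distance to a fetal active region was 10052 bp, and 45.1% were under 5 kb from one (interval 33.2 to 57.3%). For all 1375 peaks outside, these values were 35249 bp and 19.1%, and for the 16522 shared peaks outside they were 11079.5 bp and 38.3%. Both of these sets hold peaks of any score, and the interval of the 71 holds the value of the shared peaks.

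The 156 peaks inside lay in 109 fetal active regions with a median width of 1982 bp. Of those regions 24 held at least 2 adult-only peaks, and 1 held 8. By coverage 135 of the 156 peaks (86.5%) lay wholly within the region, and 86 (55.1%) lay nearer to an end of the region than to its centre. The adult-only peaks covered a median of 13.83% of a region, at least 25% of 26 regions and at least 50% of 8. A fetal H3K27me3 peak lay elsewhere in 47 of the 109 regions.

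Most of these peaks lay under both active marks in the fetal lists. Of the 156, 86 (55.1%) overlapped fetal H3K4me3 and H3K27ac, 63 (40.4%) fetal H3K4me3 alone and 7 fetal H3K27ac alone. The 3492 shared peaks inside fetal active regions were mostly under H3K4me3 alone (79.7%), with both marks at 18.4%. In the adult lists 53 of the 156 (34.0%) overlapped both marks, 62 H3K4me3 alone, 2 H3K27ac alone and 39 neither (25%, interval 18.4 to 32.6%). Among the shared peaks inside, 565 (16.2%) overlapped neither in the adult lists.

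Across all 1731 adult-only peaks the active marks were found more often in the fetal than in the adult lists. H3K4me3 was called in both stages at 120, in fetal alone at 43 and in adult alone at 2, so that 26.4% of those with fetal H3K4me3 had none in adult (interval 19.8 to 33.8%; all adult peaks 20.0%, shared 19.8%). H3K27ac was called in both at 47, in fetal alone at 48 and in adult alone at 8, so that 50.5% of those with fetal H3K27ac had none in adult (40.1 to 60.9%; all adult peaks 40.8%, shared 39.6%). Both intervals hold the value over all adult peaks and start at or just above that of the shared peaks. H3K4me1 was called in both at 1, in fetal alone at 138 and in adult alone at 2 (99.3% without adult; all adult peaks 93.8%), beside an adult H3K4me1 list that is much shorter than the fetal list. For the peaks inside, the shares without the adult mark were 22.8% for H3K4me3 (interval 16.3 to 30.4%; all adult peaks inside 15.8%) and 49.5% for H3K27ac (38.9 to 60.03%; all adult peaks inside 39.0%). Adult-only peaks that share a fetal peak were counted singly in these shares.

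Counted in bases, the change of H3K27ac ran in opposite directions at adult-only and shared peaks. These sets were split by fetal H3K27me3, which excludes acetylation on the same histone tail, so the split itself favours this order. How much of it comes from the split was not tested, and no conclusion is drawn from it. Fetal H3K27ac covered 29308 bp of the adult-only peaks and adult H3K27ac 12182 bp. At the shared peaks it covered 266424 bp in fetal and 316665 bp in adult, and 569 shared peaks had H3K27ac in adult alone against 306 in fetal alone. For H3K4me3 at the adult-only peaks the bases were 44433 in fetal and 32004 in adult. All of these are pooled sums without an interval. In 1 fetal active region of chromosome 6, covered to 98.7% by fetal H3K27ac, adult-only peaks held 5764 bp and adult H3K27ac 892 bp. The whole H3K27ac lists covered 49.63 Mb in fetal and 32.84 Mb in adult.

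The whole fetal peaks that hold an adult-only H3K27me3 peak can be read for how much of them the same mark covered in adult. There were 112 such fetal H3K4me3 peaks, and adult H3K4me3 covered a median of 86.2% of their length (interval of the median 82.0 to 92.4%). The median was 96.8% for 12756 fetal H3K4me3 peaks without any H3K27me3 and 94.3% for 2306 with a shared adult H3K27me3 peak. No adult H3K4me3 was called at 19 of the 112 (17%), against 7.57% and 17.2% in those sets. Under 2 kb the medians were 88.7% and, without H3K27me3, 97.7%, and at 2 to 4 kb they were 86.6% and 96.1%. The gap in coverage was larger only in the widest class. For 9 fetal H3K4me3 peaks of at least 4 kb that hold an adult-only peak the median coverage was 76.0% (23.1 to 92.0%). Of these 9, a small class, 4 were covered by under 50%. Of 421 fetal peaks of that width without H3K27me3, 4 (0.950%) were covered by under 50%, and the median was 96.6%.

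For H3K27ac the order against fetal peaks without H3K27me3 depended on the width of the fetal peak. The 58 fetal H3K27ac peaks that hold an adult-only H3K27me3 peak were covered by adult H3K27ac over a median of 54.4% of their length (21.8 to 68.6%), against 66.6% for 22140 without any H3K27me3 and 72.5% for 442 with a shared adult peak. For fetal widths of 2 to 4 kb the medians were 53.2% (25 peaks) and 76.7% without H3K27me3, and for at least 4 kb they were 27.3% (6 peaks) and 70.9%. Under 50% of the length was covered in 4 of these 6, against 26.6% of those without H3K27me3. Under 2 kb this order was turned around, at 59.3% (27 peaks) against 0% for those without H3K27me3, most of which had no adult H3K27ac. Against fetal peaks with a shared adult peak it was not turned around. Their medians were 73.7% under 2 kb, 69.7% at 2 to 4 kb and 60.4% at 4 kb or more. The interval over all 58 holds the value without H3K27me3, and the classes of wide peaks are small.

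Within these fetal peaks, pooled bases and single peaks gave different orders of the adult mark under and beside the adult-only peaks. Adult H3K4me3 covered 69.7% of the bases under adult-only peaks and 75.2% of the other bases, but by peak it was lower under them in 17 of 111, higher in 61 and equal in 33. For H3K27ac the shares of bases were 35.9% and 43.5%, and by peak it was lower in 14 of 58, higher in 23 and equal in 21. The adult mark was thus lower under the adult-only peaks over pooled bases, and higher under them in more single peaks than it was lower. Adult-only peaks took a median of 14.1% of an H3K4me3 peak and 13.1% of an H3K27ac peak, so short stretches were set against long ones. The counts by peak were not compared with those of other short stretches, so no conclusion is drawn from them.

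The widest and highest adult-only peak lay on chromosome 6 from 49162999 to 49166093. It was 3095 bp wide with a score of 1703.48, which ranked 29 by score and 40 by width among all adult H3K27me3 peaks, and the nearest fetal H3K27me3 peak was 175762 bp away. It lay wholly inside a fetal H3K4me3 peak of 7029 bp and a fetal H3K27ac peak of 8095 bp, both with a score of 3100. The adult lists held in their place an H3K4me3 peak of 1623 bp (score 255.03) and an H3K27ac peak of 892 bp (score 58.21), both within the span of the adult H3K27me3 peak. In the fetal active region from 49162426 to 49170628 (8203 bp), 8 adult-only peaks covered 70.3%, adult H3K4me3 covered 19.8% and adult H3K27ac 10.9%. The other 7 of the 8 had no adult H3K4me3 or H3K27ac, and the widest of them ran from 49167908 to 49168566 (659 bp, score 230.25).

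This peak was part of a run of 19 adult-only peaks with gaps of at most 5 kb, from 49161700 to 49177482 on chromosome 6. The run covered 8757 bp, or 55.5% of its span, and the nearest fetal H3K27me3 peaks were 174463 bp to its left and 442884 bp to its right. It was the longest run by number after that of chromosome 15. In these lists the wide fetal block of H3K4me3 and H3K27ac at the run's left end was thus covered mostly by adult H3K27me3, with a narrow peak of each active mark left in adult. To the left of the run lay a further fetal H3K27ac peak of 3938 bp (score 1169.24) and a fetal H3K4me3 peak of 1505 bp (score 317.42). No adult H3K4me3, H3K27ac or H3K27me3 peak was called over either.

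The next run by number, on chromosome 11 from 95861852 to 95882393, held 13 adult-only peaks covering 4223 bp. They flanked an adult H3K27me3 peak of 4586 bp (from 95865296 to 95869881, score 2737.63) that the rule left out because a fetal H3K27me3 peak of 931 bp with a score of 87.51 lay within it. The fetal lists held an H3K4me3 peak of 5341 bp and an H3K27ac peak of 4498 bp at this place, both with a score of 3100, and the adult lists held neither mark in the run. Here the rule took in the flanks of a strong adult peak and left out the peak itself.

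On chromosome 10 from 45189460 to 45196933 a run of 10 adult-only peaks covered 3485 bp. The fetal lists held H3K4me3 peaks of 4099 and 1454 bp and H3K27ac peaks of 3574 and 1694 bp over it. In adult an H3K4me3 peak of 2027 bp remained and no H3K27ac peak was called in the run. The fetal active region from 45192548 to 45194241 had neither adult mark, and 3 adult-only peaks covered 71.3% of it. A further run, of 9 peaks with a highest score of 112.85, lay on chromosome 13 from 21346433 to 21356592. Unlike in the runs described before it, no H3K27ac peak was called in it at either stage. This did not set it apart from all runs, as the run of the chromosome 15 interval and some smaller runs also held none. Within the span of the chromosome 13 run 2 fetal H3K27me3 peaks covered 22.4%, fetal H3K4me3 32.2% and adult H3K4me3 9.08%.

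Other wide peaks inside fetal active regions kept H3K4me3 in adult. On chromosome 16 from 22161221 to 22162337 a peak of 1117 bp (score 442.71), 1418 bp from a fetal H3K27me3 peak, lay in a fetal H3K4me3 peak of 3956 bp and an H3K27ac peak of 3325 bp. Adult H3K4me3 (3232 bp, score 2230.33) covered all of it, and no adult H3K27ac was called there. On chromosome 18 from 22502726 to 22503459 (734 bp, score 210.45) and on chromosome 10 from 76628025 to 76628653 (629 bp, score 189.16) the states were the same, with adult H3K4me3 over the whole peak and no adult H3K27ac, but fetal H3K27me3 lay 52 and 31 bp away.

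At 2 further loci both active marks were called in adult. On chromosome 3 from 121130105 to 121130930 a peak of 826 bp (score 391.51) was wholly under adult H3K4me3 and had 203 bp under adult H3K27ac. On chromosome 2 from 102290474 to 102291346 a peak of 873 bp (score 362.93) lay wholly under adult H3K4me3 and adult H3K27ac. The nearest fetal H3K27me3 peaks were 103561 and 89164 bp away. So the widest peaks inside fetal active regions differed in their adult state, from no active mark to both.

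**Figure D4:**
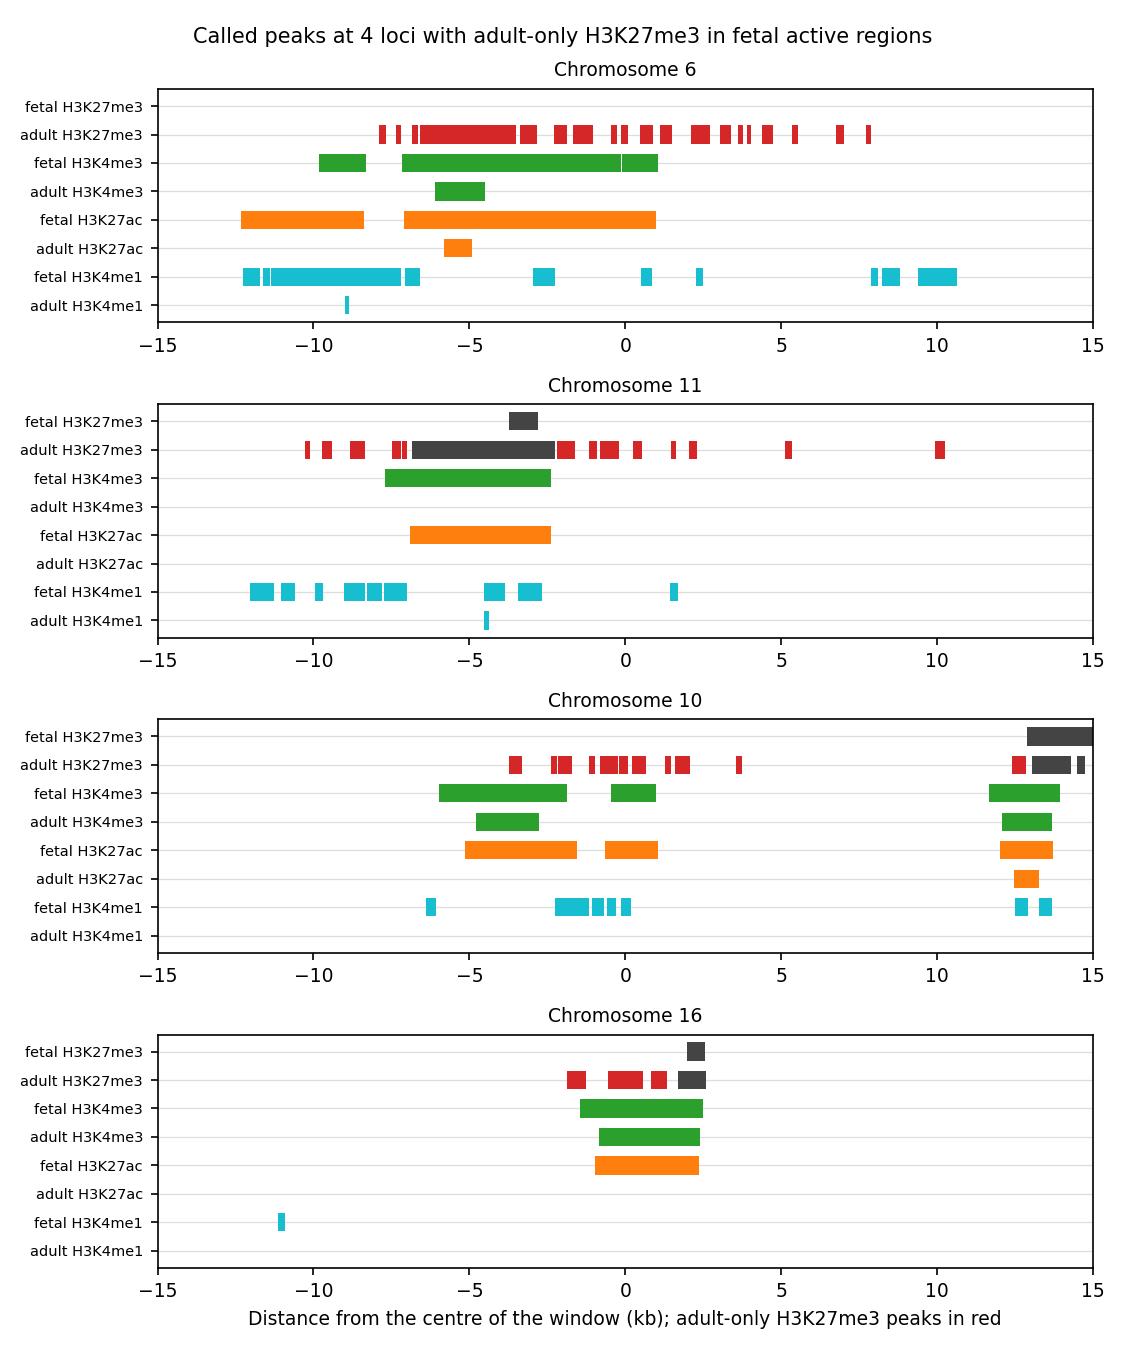
Called peaks of each mark and stage within 15 kb of the centre of 4 loci on chromosomes 6, 11, 10 and 16, with distance from the centre in kb on the horizontal axis, 1 row per mark and stage, and adult-only H3K27me3 peaks in red. On chromosomes 6, 11 and 10 wide fetal H3K4me3 and H3K27ac bars stand over adult H3K27me3. Adult bars of these active marks are shorter than the fetal bars or absent, with an adult H3K4me3 bar of 2027 bp on chromosome 10. A further fetal H3K27ac bar of 3938 bp on chromosome 6 stands over no adult H3K27me3. On chromosome 16 the adult H3K4me3 bar of 3232 bp remains.

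The chromosome 15 interval ran from 102731602 to 102880637 between a fetal H3K27me3 peak of 6193 bp (score 1265.26) and another of 2396 bp (score 277.84). These 2 fetal peaks carry consecutive numbers in the authors' list. The 188 adult-only peaks between them covered 99297 bp, or 66.6% of the interval, with a median width of 382 bp, a median score of 152.35 and a highest score of 1087.73, and 138 (73.4%) reached the median score of the adult list. Of 6950 intervals of at least 10 kb between fetal H3K27me3 peaks, the next most covered by adult-only peaks, on chromosome 17, reached 7.70%. In the flanks fetal coverage was above adult coverage: before the interval, over the same length, 33 fetal H3K27me3 peaks covered 26.8% and 20 adult peaks 2.63%, and after it 19 fetal peaks covered 60.6% and 66 adult peaks 16.9%.

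No H3K27ac peak of either stage and no adult H3K4me1 peak was called in this interval. Fetal H3K4me3 covered 2.12% of it and fetal H3K4me1 5.54%. The flank before it had no peak of these 2 fetal lists, and in the flank after it they covered 3.69% and 6.87%. It held 3 fetal H3K4me3 peaks (3161 bp), 3 adult H3K4me3 peaks (3259 bp) and 20 fetal H3K4me1 peaks (8257 bp). None of its 188 adult-only peaks overlapped H3K27ac at either stage or adult H3K4me1, and a count of 0 of 188 allows a share of up to 1.60% by a limit of 3 counts, or 1.94% as the exact upper bound. Of the 188, 2 were inside a fetal active region. The wider of these, from 102864183 to 102866353 (2171 bp, score 1042.48), lay over a fetal H3K4me3 peak of 1332 bp (score 244.69) and an adult one of 900 bp (score 62.67). The widest peak of the interval, from 102805966 to 102808189 (2224 bp, score 988.61), touched a fetal H3K4me3 peak of 721 bp with a score of 53.98. There an adult H3K4me3 peak of 1165 bp had a score of 261.6.

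The other wide or high peaks of the interval lay outside fetal active regions. They ran from 102801328 to 102803286 (score 913.92), 102856974 to 102858808 (score 1037.79), 102794761 to 102796585 (score 905.71), 102820899 to 102822629 (score 1087.73), 102751682 to 102753391 (score 664.05) and 102811870 to 102813335 (score 894.24). None of these 6 overlapped H3K4me3 or H3K27ac at either stage. Elsewhere no adult-only peak of the outside class was wider than 771 bp or scored above 314.08. The absence of fetal H3K27me3 peaks across this interval rests on the 1 combined fetal list. A list of called peaks does not tell a lack of the mark from a fetal peak that was not called or not listed there, so whether these 188 peaks lack fetal H3K27me3 was not tested.

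**Figure D5:**
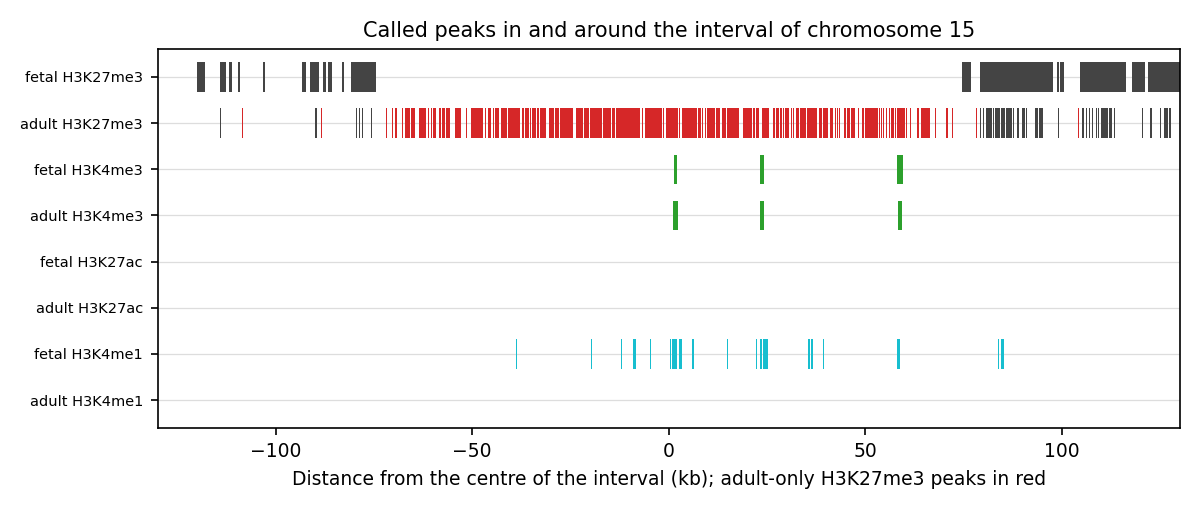
Called peaks of each mark and stage in the chromosome 15 interval and its flanks, with distance from the centre of the interval in kb on the horizontal axis, 1 row per mark and stage, and adult-only H3K27me3 peaks in red. The 188 red peaks fill the 149036 bp between 2 fetal H3K27me3 peaks, and no H3K27ac peak is drawn within it at either stage.

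Outside this interval the adult-only peaks were scattered. With gaps of at most 5 kb the remaining 1543 formed 1284 runs, of which 1136 were single peaks (73.6% of these peaks), and 11 runs of at least 5 held 96 peaks (6.22%). Counted with the interval, 1158 stretches between fetal H3K27me3 peaks held an adult-only peak and 930 of them held 1. By chromosome they made up from 4.97% (chromosome 19) to 9.20% (chromosome 6) of the adult H3K27me3 peaks, apart from chromosome 15 with 21.4%. Chromosome 15 had 5.89% without the interval.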

How the data were processed

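ChIP-seq peak lists of 4 histone marks from fetal liver and adult bone marrow HSCs were used, 1 list per mark and stage. Per the submitters' processing notes, Bowtie2 2.2.2 and the mouse build mm9 were used; peak names in the lists have the MACS form, and the peak caller's settings are not given in the sources used here. The deposited lists hold, per peak, a position and the authors' score (no stated unit, lowest value 50); the labels' group names were used as given, and each list combines its libraries, so no replicate, depth or signal value was used. Gene positions and genome sequence of mm9 were not used here, and regions are named by position, 1-based.

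Chromosomes 1 to 19 were analysed with Python 3.11.15, numpy 2.4.6, pandas 2.3.3 and scipy 1.17.1. Overlap meant at least 1 shared bp. Shares have exact Clopper-Pearson 95% intervals and medians have binomial order-statistic intervals, both over peaks as counted, and no test was run because each stage has 1 list per mark. Overlap, gap and coverage code was checked on simulated peaks among the 14579 fetal H3K27me3 peaks, and it recovered 200 of 200 overlaps, 200 of 200 gaps and 400 of 400 coverages.

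The set of peaks, the definitions and the alternatives were chosen with earlier results of these data known. The regions named were the 8 widest members, the 8 with the highest score, the 8 widest and the 5 highest inside fetal active regions, the 5 farthest from fetal H3K27me3, the 5 runs with the most members and the 5 peaks on each side of the rule's edge. The chromosome 15 interval, the adult peak left out on chromosome 11 and single active regions within the runs were added after their values were seen.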

Additional observations from a re-analysis of the deposited data

Results flagged for a closer look

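Adult H3K27me3 peaks outside chromosomes 1 to 19 were not part of the set, and some of them also lacked a fetal peak. On chromosome X 7 of 133 adult peaks overlapped no fetal H3K27me3 peak (5.26%, exact 95% interval 2.14 to 10.5%), with scores of 50.12 to 97.28 and a median width of 163 bp. On unplaced contigs 4 of 21 did (19%), with scores up to 72.12.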

How the results depend on the processing

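Of 121 values recomputed under 17 other settings, 79 stayed within the reported value's 95% interval or, for the number of peaks, within 1.5 times of it, and 42 did not; none of these values has a test. Leaving out the chromosome 15 interval and the chromosome 6 run were chosen after seeing the data.

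With adult H3K27me3 peaks at or above the list's median score, 261 peaks remained (2.28%), with fetal H3K4me3 at 21.1%, adult H3K4me3 14.6%, fetal H3K27ac 13.4%, adult H3K27ac 7.66%, fetal H3K4me1 23.0%, adult H3K4me1 0.766% and 19.9% inside fetal active regions, a median width of 386 bp, score of 146.53 and distance of 32240 bp. With adult peaks merged within 1 kb, the adult-only share was 17.1%, with fetal H3K4me3 at 6.13%, adult H3K4me3 5.10%, fetal H3K4me3 without adult 16.9%, fetal H3K27ac 3.90%, fetal H3K4me1 5.33%, 6.05% inside, a median width of 176 bp and a median score of 55.73. The number of adult-only peaks was then 1256. The share was 5.51% (1257 peaks) at 1 kb or more from fetal peaks and 4.35% by covered length. Against fetal H3K27me3 peaks at or above their median score it was 10.6% (2412 peaks), with fetal H3K4me3 at 10.9% and adult H3K4me3 at 8.62%. With 50% of the width covered, fetal H3K4me1 was 5.83%.

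With the other marks' peaks at or above their median score, fetal H3K4me3 was 4.62%, adult H3K4me3 1.50%, fetal H3K27ac 3.64%, adult H3K27ac 0.578% and fetal H3K4me1 5.08%, and the shares without adult were 67.5% for H3K4me3 and 84.1% for H3K27ac. With equal numbers of top peaks per stage, fetal H3K4me1 was 1.50% and its share without adult 100%. With H3K27ac alone as active regions, 5.03% were inside. Fetal H3K4me3 peaks that hold a strong adult-only peak were covered in adult over a median of 79.0%. Without the chromosome 15 interval, the share was 6.81%, the median width 176 bp, score 56.07 and distance 4340 bp. The causes were not tested.

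No paired analysis was possible because the libraries of a group stand pooled in 1 list; leaving out a library was therefore not run. Depth is not known from the lists.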

Other observations

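Of 22 adult H3K27me3 peaks under 120 bp wide, 14 were adult-only, with scores of 55.91 to 155.89 and a median of 78.49. Of these 14, 4 lay within 12319 bp on chromosome 1, from 172994125 to 173006443, with widths of 77 to 104 bp and scores of 66.87 to 155.89.

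The fetal active region on chromosome 2 from 152559462 to 152568503 (9042 bp) held 4 adult-only peaks. Adult H3K27ac covered 49.0% of it and adult H3K4me3 25.5%.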
